A study of Mus musculus with 12 samples.

Results

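Adrenomedullin signalling was examined through 5 genes of the 20368 in the deposited table. They were *Adm*, which encodes the peptide adrenomedullin, *Calcrl*, which encodes the calcitonin receptor-like receptor, and the receptor activity-modifying protein genes *Ramp1*, *Ramp2* and *Ramp3*. They were chosen by symbol with their measured levels in mutant and control hearts of this series already known, so the genotype differences are given as a description, without a test. The comparison between stages, and the test of whether the genotype difference changed with stage, were not used to choose them.

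RNA was sequenced from embryonic hearts of CD1 mice at E11.5 and E12.5, in 3 libraries for each genotype and stage, 12 in all. All embryos carried *Mesp1Cre*, which is active in the early cardiac mesoderm and in its descendants in the myocardium, endothelium, smooth muscle and epicardium, and a floxed *Hira* allele. Control hearts were *Mesp1Cre*;*Hira*+/fl, so their Cre-expressing lineage could keep a single working copy. Mutant hearts were *Mesp1Cre*;*Hira*-/fl, with a null allele in all cells and the floxed allele open to deletion in the *Mesp1* lineage. Cells outside that lineage, such as the neural crest derived cells of the outflow tract, keep the floxed copy intact. HIRA is the chaperone that places the histone variant H3.3 outside of DNA replication. The labels do not say whether a library held a single heart or several, so p-values measure the spread between libraries only.

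Adrenomedullin and calcitonin gene-related peptide (CGRP) signal through the same seven-pass receptor, the product of *Calcrl*, which needs a RAMP to reach the cell surface and to gain its ligand preference. With RAMP1 it forms the CGRP receptor, and with RAMP2 or RAMP3 it forms the adrenomedullin receptors. Bound receptor raises cyclic AMP through the stimulatory G protein. In mouse embryos, loss of *Adm*, *Calcrl* or *Ramp2* is known to cause oedema with failure of lymphatic and blood vessels, and *Adm* is a known target of the hypoxia-inducible factors.

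Depth ran from 11994148 to 17483982 counted reads per library, the lowest being E11.5 mutant replicate 3. Levels are counts normalised to library size (CPM, with TMM scaling), as mean ± SD over 3 libraries. *Hira*, the targeted gene, stood at 78.1 ± 8.89 CPM in E11.5 control and 64.7 ± 8.42 CPM in E11.5 mutant hearts, and at 75.1 ± 13.1 and 73.7 ± 5.19 CPM at E12.5. The genotype differences on the log2 scale were -0.27 and -0.01 (adjusted p = 0.589 and 0.961, edgeR), and counts per gene cannot show the loss of the deleted exon. The study reported recombination by PCR, fewer reads of that exon in mutants from its RNA sequencing, and reduced HIRA protein in mutant hearts. The 9 cardiomyocyte markers, checked against the heart label, summed to between 21896 and 30261 CPM, with none at 0. From 4 Y-linked genes, the E11.5 control libraries were 3 male, while each of the other groups had 1 male library of 3, so sex was not balanced between genotypes at E11.5 or between stages in controls.

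The promoters of *Ramp1* and *Adm*, the members whose genotypes did not overlap at either stage, are given as the 250 bases before the RefSeq start site on GRCm38.p6, 5′ to 3′ on the strand of the gene. The window was searched on both strands for GAGAGAGA, the GAGA repeat examined in the study, and for ACGTG and GCGTG, the cores to which hypoxia-inducible factors bind. Capitals mark matches to any of these motifs. *Ramp1* lies at chr1:91179572-91179821 (+ strand) and *Adm* at chr7:110627407-110627656 (+ strand).
Ramp1: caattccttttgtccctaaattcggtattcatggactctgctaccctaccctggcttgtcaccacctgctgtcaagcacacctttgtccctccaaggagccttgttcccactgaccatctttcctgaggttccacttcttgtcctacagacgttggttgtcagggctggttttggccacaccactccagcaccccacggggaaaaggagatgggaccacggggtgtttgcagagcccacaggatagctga
Adm: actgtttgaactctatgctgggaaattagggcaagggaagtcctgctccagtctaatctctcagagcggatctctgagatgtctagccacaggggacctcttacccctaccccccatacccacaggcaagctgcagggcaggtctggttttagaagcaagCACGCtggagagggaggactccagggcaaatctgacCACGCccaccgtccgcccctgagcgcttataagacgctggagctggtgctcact
The *Adm* window held 2 matches to GCGTG on the opposite strand, read as CACGC in capitals, starting 90 and 54 bases before the start site, and the *Ramp1* window held none. *Ramp3* (chr11:6658283-6658532, + strand) held 2 matches to GCGTG, 1 on each strand, and *Calcrl* (chr2:84425267-84425516, - strand) none. GAGAGAGA was found in none of these 4 windows. Of 32851 mouse promoters of the same length, 38.6% held ACGTG or GCGTG and 3.26% held GAGAGAGA, so matches to the hypoxia cores are common. *Ramp2* had no entry. These matches are letters in a window and are not evidence of binding.

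*Adm*, the ligand gene, was the member with the largest difference towards higher levels in mutants. Its position on GRCm38 is chr7:110627669-110629819 (+ strand, 4 exons). The E11.5 control libraries had 4.84, 4.46 and 3.86 CPM (4.38 ± 0.492, n = 3, from 74, 69 and 55 reads) and the E11.5 mutants 6.80, 5.10 and 7.57 CPM (6.49 ± 1.26, n = 3). At E12.5 the controls had 6.13, 5.19 and 9.53 CPM (6.95 ± 2.28, n = 3) and the mutants 14.1, 9.92 and 16.2 CPM (13.4 ± 3.21, n = 3, from 211, 170 and 248 reads). All mutant libraries lay above all control libraries at both stages, although at E12.5 the lowest mutant, replicate 2, exceeded the highest control, replicate 3, only narrowly. The difference was 0.56 (SE 0.24) on the log2 scale at E11.5 and 0.96 (SE 0.24) at E12.5, a 1.95-fold higher level in E12.5 mutants. Without any 1 library, the E12.5 value ran from 0.78 to 1.26. The span of the annotated antisense gene *Gm28863*, introns included, covers all 1619 exonic bases of *Adm*. Whether the counting used the strand is not given in the sources used here, so *Adm* reads may include antisense ones.

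*Calcrl*, the receptor gene, showed no such difference. Its position on GRCm38 is chr2:84330626-84425411 (- strand, 16 exons). The E11.5 libraries had 60.1, 85.7 and 95.9 CPM in controls (80.5 ± 18.5, n = 3) and 83.3, 102 and 66.9 CPM in mutants (84.0 ± 17.4, n = 3). The E12.5 libraries had 107, 89.2 and 101 CPM in controls (99.0 ± 9.10, n = 3) and 114, 105 and 93.8 CPM in mutants (104 ± 10.4, n = 3). The genotypes overlapped at both stages, and on the log2 scale they differed by 0.06 (SE 0.21) at the earlier stage and 0.09 (SE 0.09) at the later. With sex as a term the E11.5 value turned to -0.27.

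*Ramp1*, the partner that makes the CGRP receptor, was the member with the largest difference towards lower levels in mutants. Its position on GRCm38 is chr1:91179822-91225196 (+ strand, 3 exons). The E11.5 controls had 22.0, 19.0 and 21.6 CPM (20.9 ± 1.64, n = 3, from 337, 294 and 308 reads) and the E11.5 mutants 8.72, 10.3 and 11.9 CPM (10.3 ± 1.58, n = 3, from 136, 169 and 138 reads). The E12.5 controls had 13.9, 15.2 and 14.9 CPM (14.7 ± 0.704, n = 3) and the E12.5 mutants 7.43, 8.93 and 6.80 CPM (7.72 ± 1.09, n = 3). Neither pair of genotypes overlapped, and every mutant library also lay below every control library of the other stage. The difference was -1.02 (SE 0.17) on the log2 scale at E11.5, a 2.03-fold lower level, and -0.91 (SE 0.14) at E12.5, a 1.88-fold lower level. Without any 1 library it stayed between -1.14 and -0.92 at E11.5 and between -1.03 and -0.83 at E12.5, and with sex as a term the E11.5 value was -0.81. In these bulk hearts, fewer cells that express *Ramp1* and less *Ramp1* RNA per cell cannot be told apart.

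*Ramp2*, the partner that makes the main adrenomedullin receptor of vessels, was the most abundant member. Its position on GRCm38 is chr11:101246028-101259546 (+ strand, 4 exons). At E11.5 the controls had 91.9, 96.8 and 92.6 CPM (93.7 ± 2.65, n = 3) and the mutants 91.4, 116 and 123 CPM (110 ± 16.5, n = 3). At E12.5 the controls had 92.7, 105 and 107 CPM (101 ± 7.56, n = 3) and the mutants 118, 96.8 and 110 CPM (108 ± 10.6, n = 3). The genotypes overlapped at both stages, with log2 fold changes of 0.23 (SE 0.14) and 0.11 (SE 0.09). The span of *Vps25*, a gene counted separately, covers 1103 exonic bases of *Ramp2* on the same strand in the annotation, introns included. Where exons of both overlap, reads could be assigned to either.

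*Ramp3*, the third RAMP and the partner of a second adrenomedullin receptor, was near the limit of measurement. Its position on GRCm38 is chr11:6658521-6677475 (+ strand, 3 exons), and 107 of its exonic bases lie within the span of the pseudogene *Gm11978*. The libraries held 14, 10 and 12 reads in E11.5 controls (0.801 ± 0.139 CPM, n = 3), 4, 13 and 5 in E11.5 mutants (0.492 ± 0.272 CPM, n = 3), 28, 18 and 23 in E12.5 controls (1.43 ± 0.416 CPM, n = 3) and 13, 22 and 13 in E12.5 mutants (1.0 ± 0.245 CPM, n = 3). Genotypes overlapped at both stages, and the log2 differences of -0.67 (SE 0.52) and -0.47 (SE 0.35) were little larger than their errors. It passed the minimum mean level of 0.5 RPKM in each comparison, but in only 4 of the 6 fits without 1 library at E11.5.

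**Figure D1:**
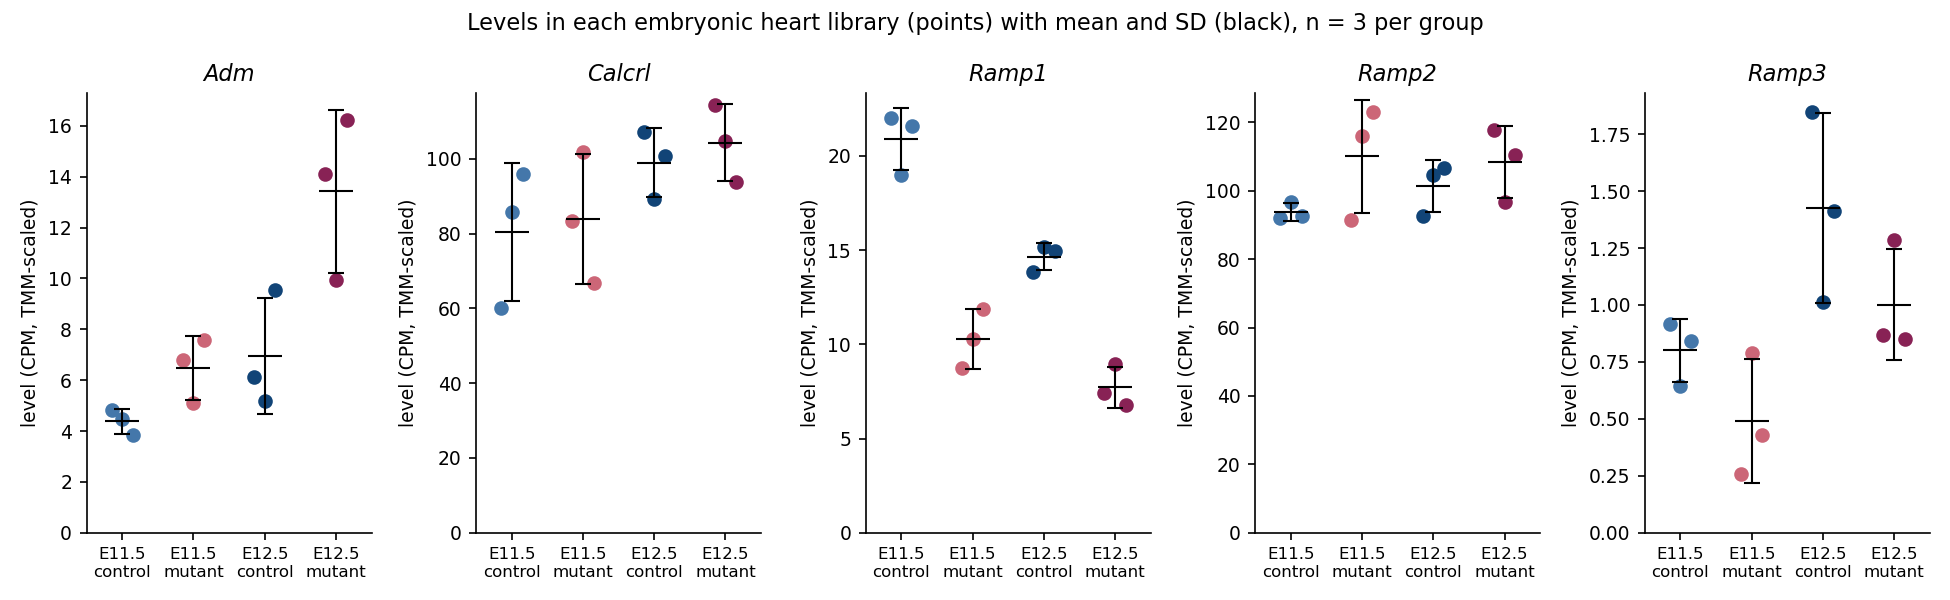
Level of each of the 5 genes in CPM (vertical axes from 0) in the 12 heart libraries, by stage and genotype, with black bars for the mean and SD of 3 libraries. The *Ramp1* points of mutants (6.80 to 11.9) lie below those of controls (13.9 to 22.0), the *Adm* points of E12.5 mutants (9.92 to 16.2) lie above those of E12.5 controls (5.19 to 9.53), and the genotypes overlap for *Calcrl*, *Ramp2* and *Ramp3*.

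Calls needed an adjusted p up to 0.05 together with a 1.5-fold or larger difference. At E11.5, 0 of the 5 members were past both thresholds with edgeR, where 0.115% of the 12197 genes tested were, while *Ramp1* was past them with DESeq2. At E12.5, *Ramp1* and *Adm* were, 2 of 5, where 3.03% of 12256 genes were, and *Adm* left this count without control replicate 1 or 2 or mutant replicate 1 or 3. The groups did not overlap for *Ramp1* and *Adm* at either stage, against 16.3% of all genes at E11.5 and 26.4% at E12.5. As the members were chosen with these contrasts known, nothing is read from these counts.

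Levels of different genes were compared per length, in RPKM (CPM per kilobase), from the counts and the lengths that the files imply. *Ramp2* was the highest member in all 4 groups, with means from 107 to 126 RPKM, above 93.1% to 94.8% of the genes at 0.5 RPKM or more. These values rest on the 872 bases given to *Ramp2* in the files, against 3301 in the annotation, and would be lower with the latter. *Calcrl* came next with means from 17.0 to 22.0 RPKM, and *Ramp3* was always the lowest, with means from 0.403 to 1.17 RPKM. The ranges of *Ramp2*, *Calcrl* and the next gene down did not overlap in any group. The order of *Adm* and *Ramp1* differed between the groups. In E11.5 controls *Ramp1* (6.91 ± 0.544 RPKM) was 2.18-fold above *Adm* (3.17 ± 0.356 RPKM) without overlap. In E11.5 mutants *Adm* (4.70 ± 0.915 RPKM) and *Ramp1* (3.41 ± 0.522 RPKM) overlapped, as they did in E12.5 controls (5.03 ± 1.65 and 4.85 ± 0.233 RPKM). In E12.5 mutants *Adm* (9.72 ± 2.32 RPKM) was 3.80-fold above *Ramp1* (2.55 ± 0.362 RPKM), and the ranges were apart.

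**Figure D2:**
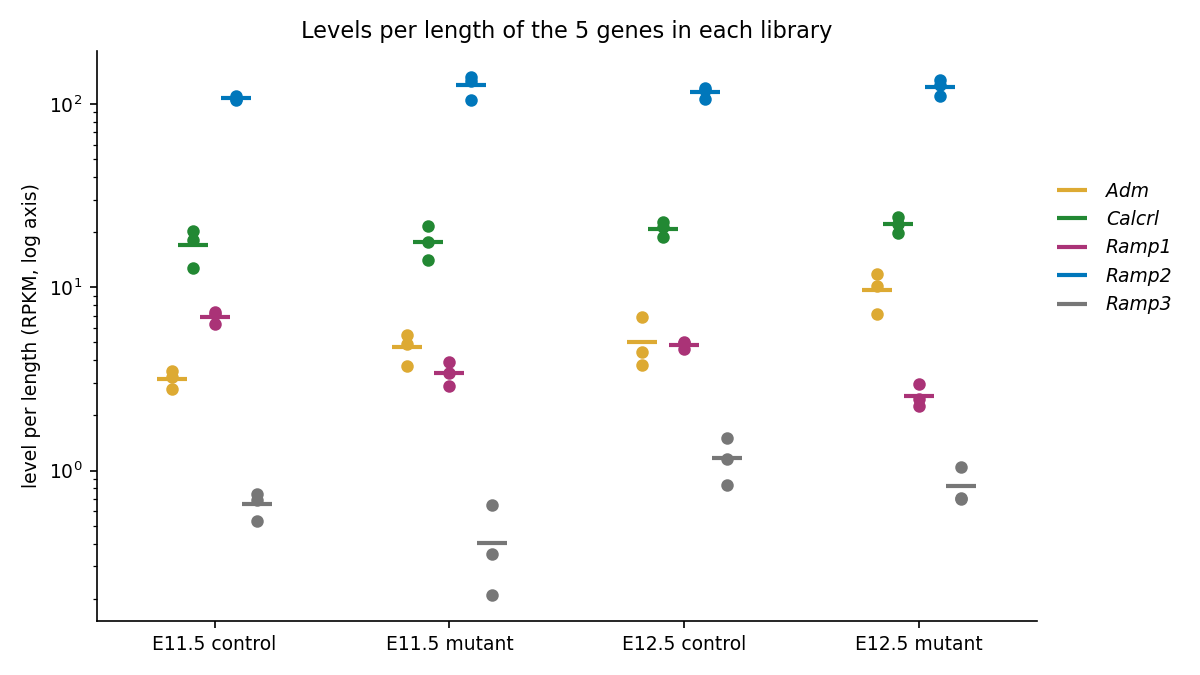
Level per length in RPKM (log axis) of the 5 genes in each library (points), with the mean of 3 libraries as a dash, by stage and genotype. *Ramp2* (105 to 141) stands above *Calcrl* (12.7 to 24.2) throughout, and *Adm* passes from below *Ramp1* in E11.5 controls to above it in E12.5 mutants.

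The RAMP genes were also set against each other within each library. *Ramp1* made up 6.43%, 5.34% and 6.27% of the summed RPKM of the 3 RAMP genes in E11.5 controls (6.01% ± 0.591, n = 3) and 2.67%, 2.48% and 2.71% in E11.5 mutants (2.62% ± 0.122, n = 3). In E12.5 hearts it made up 4.08%, 3.99% and 3.85% in controls (3.97% ± 0.117, n = 3) and 1.78%, 2.57% and 1.74% in mutants (2.03% ± 0.468, n = 3). Mutant shares lay below control shares at each stage, as the *Ramp1* levels did. *Ramp2* made up 93.4% to 97.3% of the sum as group means, and *Ramp3* 0.303% to 0.969%. These shares rest on the length given to *Ramp2*, 872 bases in the files against 3301 in the annotation. With annotation lengths the *Ramp1* share was 19.3%, 9.18%, 13.3% and 7.15% in the same order of groups, and *Ramp2* stood at 1.53 to 2.01 times *Calcrl* on average in place of 5.61 to 7.38 times.

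Between stages, the *Ramp1* share of controls was lower at E12.5 than at E11.5 without overlap (6.01% and 3.97%, exact two-sided permutation p = 0.1, the smallest that 3 libraries against 3 allow, so this test cannot pass 0.05). In mutants the shares overlapped (2.62% and 2.03%, exact two-sided permutation p = 0.2). The ratio of *Adm* to *Ramp1* went from 0.462 ± 0.0635 to 1.04 ± 0.329 in controls and from 1.40 ± 0.309 to 3.94 ± 1.41 in mutants, without overlap in either genotype (exact two-sided permutation p = 0.1 each).

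**Figure D3:**
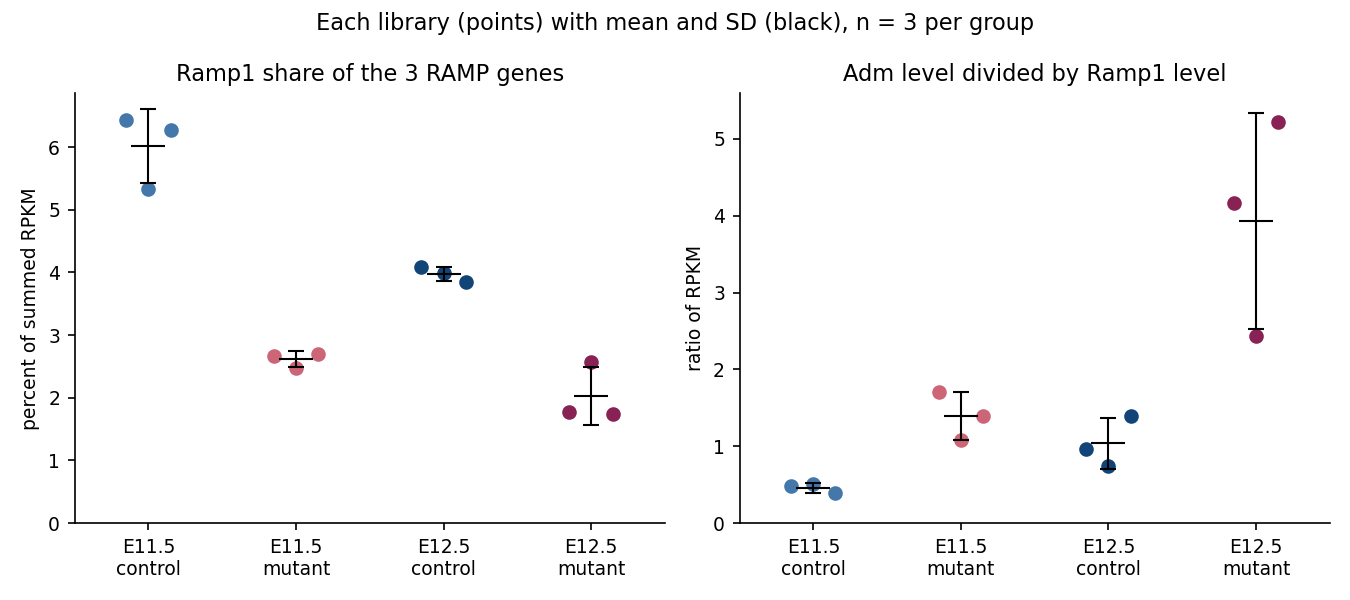
Left, *Ramp1* as percent of the summed RPKM of the 3 RAMP genes; right, *Adm* RPKM divided by *Ramp1* RPKM, in each library (points) with mean and SD of 3 libraries (black). The *Ramp1* share is at most 2.71% in mutants and at least 3.85% in controls, and the ratio is highest in E12.5 mutants (2.43 to 5.22).

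The stage comparison asked how each member moved between E11.5 and E12.5 within a genotype. Stage cannot be told apart from any processing day that differed between the stages. In control hearts *Ramp1* was lower at E12.5, by -0.51 on the log2 scale (SE 0.12, adjusted p = 0.0327 by the quasi-likelihood test of edgeR), a 1.42-fold difference that stayed under the fold threshold. An adjusted p of at most 0.05 was reached by 11.3% of the 12250 genes tested, and by 1 of the 5 members. With sex as a term the *Ramp1* adjusted p was 0.521, its log2 fold change -0.48, and without 1 library it passed 0.05 in 1 of 6 fits, that without E11.5 control replicate 2 (adjusted p from 0.0105 to 0.145 over the 6 fits). In mutants the *Ramp1* value was -0.40 (SE 0.19, adjusted p = 0.574, edgeR).

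*Adm* had stage values of 0.66 (SE 0.26, adjusted p = 0.107, edgeR) in controls and 1.06 (SE 0.23, adjusted p = 0.132, edgeR) in mutants on the log2 scale. In mutants all E12.5 libraries lay above all E11.5 ones, and in controls they did too. The mutant value did not pass the threshold with edgeR, while DESeq2 gave an adjusted p of 0.00670, and the alternatives spanned adjusted p-values from 0.00670 to 0.486. *Ramp3* stood 1.76-fold higher at E12.5 in controls (log2 0.82, SE 0.38, adjusted p = 0.166, edgeR) and 2.01-fold higher in mutants (log2 1.01, SE 0.49, adjusted p = 0.590, edgeR), with no overlap between stages but few reads. *Calcrl* values were 0.30 (SE 0.16, adjusted p = 0.213, edgeR) and 0.32 (SE 0.16, adjusted p = 0.625, edgeR), and *Ramp2* values 0.11 (SE 0.09, adjusted p = 0.431, edgeR) and -0.01 (SE 0.13, adjusted p = 0.978, edgeR).

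At both thresholds 0 of 5 members were called between stages, where 5.31% of genes were in controls and 0.523% of 12237 were in mutants. At an unadjusted p under 0.05 were *Ramp1* and *Adm* in controls, where 4001 of 12250 genes were, and *Adm* in mutants, where 1117 of 12237 were. DESeq2 called *Adm* in mutants. Stages did not overlap for *Adm*, *Ramp1* and *Ramp3* in controls, 3 of 5 members against 37.4% of all genes, nor for *Adm* and *Ramp3* in mutants, 2 of 5 against 17.4%.

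**Figure D4:**
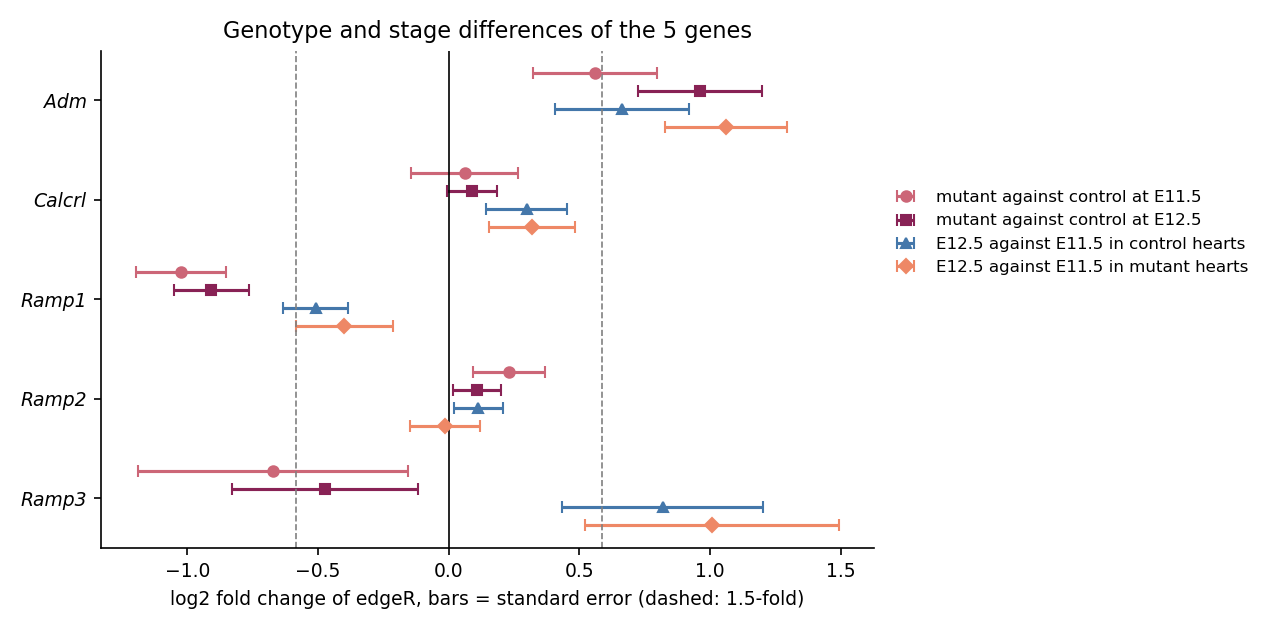
Log2 fold change of each gene (points) with its standard error (bars) for mutant against control at each stage and for E12.5 against E11.5 in each genotype; dashed lines mark 1.5-fold. *Ramp1* lies below 0 and *Adm* above 0 in all 4 comparisons, which share groups of libraries, and *Ramp3* lies below 0 by genotype and above 0 by stage.

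Whether the genotype difference itself changed with stage was tested over all 12 libraries. No member passed, and 0% of 12270 genes did, with 552 genes at an unadjusted p under 0.05 and 43 genes called by DESeq2, none of them a member. The difference of log2 fold changes, E12.5 minus E11.5, was 0.10 (SE 0.21, adjusted p = 0.962, edgeR) for *Ramp1* and 0.39 (SE 0.36, adjusted p = 0.954, edgeR) for *Adm*. For *Calcrl* it was 0.01 (SE 0.25), for *Ramp2* -0.14 (SE 0.16) and for *Ramp3* 0.18 (SE 0.59).

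The rest of the pathway was followed in lists of ligands and processing enzymes, other receptors, the cyclic AMP relay and receptor trafficking. At E11.5, 0 of the 34 genes tested on these lists were called between genotypes by edgeR, with 4 at an unadjusted p under 0.05, 0 called by DESeq2 and 1 called with sex as a term. Over all genes, 1252 of 12197 had an unadjusted p under 0.05 at E11.5 and 2613 of 12256 at E12.5. At E12.5, 4 of the 38 tested were called, 2 higher and 2 lower, and the median log2 fold change was -0.04 against 0.00 over all genes.

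Among ligands and processing genes, *Adm2*, which encodes a relative of adrenomedullin that uses the same receptors, rose at E12.5 from 0.264, 0.452 and 0.308 CPM in controls to 1.87, 0.876 and 1.05 CPM in mutants (log2 1.86, SE 0.46, adjusted p = 0.0437, edgeR). These values rest on 4, 8 and 5 reads against 28, 15 and 16, and the call was lost in all 6 fits without 1 library (adjusted p from 0.0529 to 0.168) and with DESeq2 (0.0547). *Mme*, encoding neprilysin, a protease that degrades adrenomedullin and other peptides, fell from 37.1 ± 1.21 to 24.0 ± 2.17 CPM (log2 -0.61, SE 0.09, adjusted p = 0.00586, edgeR). The *Mme* difference dropped under the fold threshold without mutant replicate 2 (log2 -0.56). Its call was also lost with all 12 libraries in one fit (adjusted p = 0.293, edgeR). *Pam*, whose enzyme amidates adrenomedullin and CGRP, stood at 1471 and 1197 CPM and overlapped between genotypes. *Calca*, the CGRP gene, stood at 4.34 and 4.11 CPM which differ by -0.07 on the log2 scale (SE 0.70), and *Calcb* and *Iapp* were below the level tested.

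Of the other receptors and decoys, 0 of 4 tested were called at either stage by edgeR or DESeq2, with 1 at an unadjusted p under 0.05 at each. *Gpr182*, an endothelial receptor of this lineage, stood at 34.0 and 42.5 CPM at E12.5, and *Ackr3*, a decoy that takes up adrenomedullin, at 79.6 and 75.4 CPM. Of the receptors outside this pathway that pair with RAMPs, 3 of 9 were tested at E12.5 and 0 were called by edgeR or DESeq2, with 1 at an unadjusted p under 0.05, *Gcgr*. Of 18 cyclic AMP relay genes tested, 1 was called at E12.5. *Prkar1b*, a regulatory subunit of protein kinase A, fell from 10.2 ± 0.691 to 5.76 ± 0.121 CPM (log2 -0.81, SE 0.15, adjusted p = 0.0128, edgeR). That call was lost without control replicate 1 (adjusted p = 0.0550, edgeR) and with all 12 libraries in one fit (adjusted p = 0.0572, edgeR). *Gnas*, encoding the stimulatory G protein, stood at 1591 and 1696 CPM. Of 8 trafficking genes, 1 was called. *Slc9a3r1*, whose product NHERF1 is known to bind RAMP3, rose from 14.8 ± 2.65 to 23.8 ± 3.12 CPM (log2 0.70, SE 0.14, adjusted p = 0.0211, edgeR) and stayed past both thresholds in 3 of 6 fits without 1 library, those lacking control replicate 3 or mutant replicate 2 or 3. The study named *Slc9a3r1* from these same hearts, so its count is not independent evidence of direction.

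Genes that answer low oxygen were listed because *Adm* is known as one of them. At E11.5, 0 of 17 were called by edgeR or DESeq2, with 6 at an unadjusted p under 0.05, where 1252 of 12197 genes were. Of the 17, 15 had a log2 fold change above 0 (median 0.24 against -0.01 over all genes). At E12.5, 2 of 17 were called, both higher, and 14 of 17 had a log2 fold change above 0, with a median of 0.34 against 0.00 over all genes. At that stage 4 of 17 had an adjusted p of at most 0.05 (edgeR), and DESeq2 called 3. An unadjusted p under 0.05 was reached by 11 of 17, and by 2613 of 12256 genes. *Slc2a1*, the glucose transporter GLUT1, rose from 347 ± 5.78 to 538 ± 136 CPM (log2 0.65, SE 0.14, adjusted p = 0.0258, edgeR), and *Ddit4*, an inhibitor of mTORC1, from 29.7 ± 1.78 to 44.6 ± 11.5 CPM (log2 0.60, SE 0.15, adjusted p = 0.0490, edgeR). Both calls were narrow. *Slc2a1* passed in 2 of 6 and *Ddit4* in 1 of 6 fits without 1 library. *Vegfa*, the angiogenic factor, stood at 148 and 193 CPM (adjusted p = 0.0752, edgeR). Levels of *Hif1a* and *Epas1*, encoding the factors themselves, were 455 and 411 CPM and 46.3 and 41.3 CPM. Any link between the genes of this list and the *Adm* levels was not tested.

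**Figure D5:**
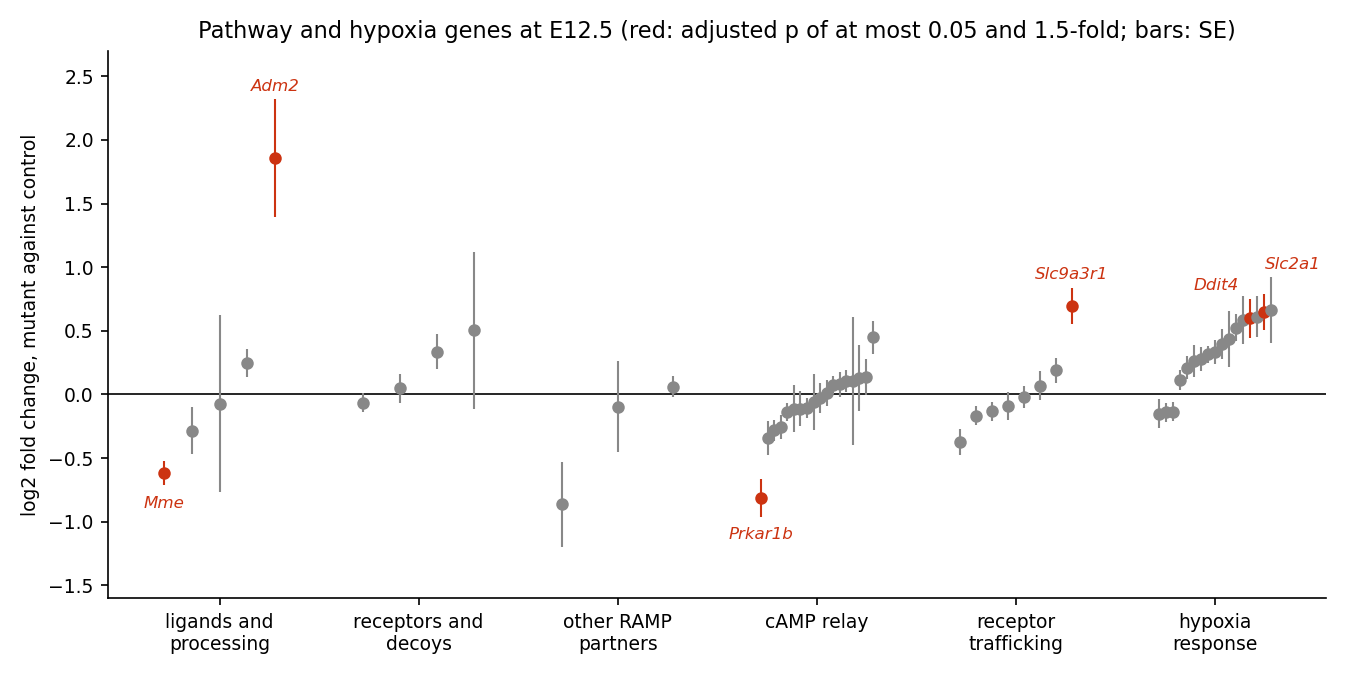
Log2 fold change at E12.5, mutant against control, of each tested gene on the pathway and hypoxia lists (points; bars, standard error), with genes past both thresholds in red. *Mme* and *Prkar1b* lie below 0, and *Adm2*, *Slc9a3r1*, *Slc2a1* and *Ddit4* above it.

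Between stages, 1 of 36 pathway genes tested in controls was called. *Grk3*, encoding a receptor kinase, rose at E12.5 from 21.2 ± 2.44 to 38.3 ± 6.54 CPM (log2 0.85, SE 0.14, adjusted p = 0.0125, edgeR). Of the hypoxia list, *Slc2a1* fell from 557 ± 45.7 to 347 ± 5.78 CPM (log2 -0.68, SE 0.10, adjusted p = 0.00758, edgeR). Of the 17 hypoxia genes tested, 8 had a log2 fold change above 0 (median -0.03 against 0.01 over all genes). The *Grk3* and *Slc2a1* calls did not hold with sex as a term (adjusted p = 0.326 and 0.217) or without E12.5 control replicate 1 (adjusted p = 0.0593 and 0.0567). In mutants 0 of 35 pathway and 0 of 17 hypoxia genes were called by edgeR, with 8 and 3 at an unadjusted p under 0.05 and 2 and 0 called by DESeq2. Over all genes, 1117 of 12237 were at an unadjusted p under 0.05 there.

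Marker lists of the cell types in the heart were summed beside these results. The 10 endothelial and endocardial markers, the cells in which *Calcrl* and *Ramp2* are best known, summed to 1184 to 1469 CPM in E11.5 controls and 1418 to 2059 CPM in E11.5 mutants, and to 1512 to 1551 and 1460 to 1847 CPM at E12.5, with 0 of 10 called at either stage by edgeR, 4 at an unadjusted p under 0.05 at each, and 1 called by DESeq2 at E11.5. Over all genes an unadjusted p under 0.05 was reached by 1252 of 12197 at E11.5 and 2613 of 12256 at E12.5. Of these markers, 10 of 10 had a log2 fold change above 0 at E11.5 (median 0.39 against -0.01 over all genes) and 9 of 10 at E12.5 (median 0.10 against 0.00). The sums overlapped between genotypes at both stages, as did *Calcrl* and *Ramp2*. Lymphatic markers, of which *Ccl21a* was at 0 in 3 groups, summed to 133 to 138 CPM in E12.5 controls and 96.4 to 112 CPM in mutants, with 2 of 5 tested called lower, 4 of 5 at an adjusted p of at most 0.05 (edgeR) and 1 of 5 with a log2 fold change above 0. At E11.5 the lymphatic sums overlapped (82.1 to 95.5 and 71.5 to 104 CPM), with 3 of 5 log2 fold changes above 0 and 0 called by edgeR or DESeq2.

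Some other lists also differed between the genotypes. Macrophage markers summed to 30.4 to 78.7 CPM in E11.5 controls and 13.7 to 15.5 CPM in mutants, and to 84.0 to 108 and 43.6 to 61.1 CPM at E12.5, with 1 and 3 of 6 called lower by edgeR. DESeq2 called 5 and 3 of them. Between the stages in controls, where sex was not balanced, the macrophage sum was higher at E12.5. The epicardial sum was lower there on average (619 CPM at E11.5 and 393 CPM at E12.5). Epicardial markers summed to 482 to 742 CPM in E11.5 controls and 306 to 414 CPM in mutants. Of these, 0 of 5 had a log2 fold change above 0 at E11.5 (median -0.75 against -0.01 over all genes). An unadjusted p under 0.05 was reached by 5 of 5, and by 1252 of 12197 genes, with 0 called by edgeR and 4 by DESeq2. At E12.5 the epicardial sums were 319 to 485 and 388 to 460 CPM, which overlapped. There 4 of 5 log2 fold changes were above 0, and 0 were called by edgeR or DESeq2. Erythroid markers summed to 2889 to 4100 CPM in E12.5 controls and 1556 to 2071 CPM in mutants, with all 5 log2 fold changes below 0 and 4 of 5 called lower. At E11.5 their sums overlapped (2336 to 3030 and 2483 to 3064 CPM), with 4 of 5 log2 fold changes above 0 and 0 called. Neuron and Schwann cell markers summed to 6.20 to 11.3 and 26.7 to 34.5 CPM at E12.5, with 2 of 2 tested called higher. At E11.5 their sums overlapped narrowly (7.69 to 18.7 and 18.3 to 37.4 CPM), with 2 of 3 log2 fold changes above 0. There 0 of 3 were called by edgeR and 2 by DESeq2. No marker list has defining genes at 0 in all groups, and the part of these cells in the *Ramp1* and *Adm* differences was not tested. For smooth muscle, which also uses the CGRP receptor, the sums were 2309 to 2862 CPM in E12.5 controls and 2810 to 3359 CPM in mutants, with 3 of 5 log2 fold changes above 0 and 1 of 5 called lower. Cushion mesenchyme markers summed to 1537 to 2173 and 1399 to 1527 CPM, with all 6 log2 fold changes below 0 and 1 of 6 called lower, and 0 of 9 cardiomyocyte markers were called by edgeR or DESeq2, with 4 at an unadjusted p under 0.05.

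The genes whose levels most resembled each member over the 12 libraries were taken by Pearson r of log2 CPM among 12270 genes, as a description without a test, since the libraries share genotypes, stages and depth. For *Ramp1* they were *Rdh14* (r = 0.97, Spearman rho = 0.96), *Tatdn1* (r = 0.96, rho = 0.93) and *Lyz1* (r = 0.95, rho = 0.92), with r of 0.66, 0.67 and 0.73 once group means were subtracted. *Lyz1* encodes a lysozyme, and like *Ramp1* it was lower in mutants, by -0.99 and -1.25 on the log2 scale at the 2 stages. For *Adm* they were *Egr1* (r = 0.92, rho = 0.85), an immediate early transcription factor gene, *Cacnb1* (r = 0.92, rho = 0.97) and *Gpr153* (r = 0.91, rho = 0.83), with r of 0.85, 0.88 and 0.72 within groups. *Egr1* differed between genotypes by 0.06 at the earlier and 0.71 at the later stage on the log2 scale. *Calcrl* was nearest to *3110002H16Rik* (r = 0.93), *Nrp1* (r = 0.90), which encodes a VEGF co-receptor, and *Rbm28* (r = 0.89), *Ramp2* to *Smagp* (r = 0.90), *C130074G19Rik* (r = 0.88) and *Pgs1* (r = 0.87), and *Ramp3* to *Slc39a13* (r = 0.93), *Zfp641* (r = 0.91) and *Itih3* (r = 0.91).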

How the data were processed

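RNA of embryonic hearts was sequenced as paired ends in 12 libraries, 3 for each genotype at each stage. The study's text gives alignment by BOWTIE and normalisation by the DEseq R package, and the submitters' processing notes name Bowtie2, DESeq and the mm10 build. The sources differ on the instrument. The counting program, annotation and use of strand are not given in the sources used here. The authors deposited a table of values named RPKM, treated here as a signal, and the average count of each gene per group, an expected or estimated count made by the authors as a mean of 3 raw counts. The deposited signal was a whole count multiplied by gene length and a library factor, and dividing these out gave counts within 1e-09 of whole numbers for 17827 genes. A further 1597 genes had no reads, and 944 genes, mostly on X and Y, are missing from the comparison tables and were not tested. The authors' fold changes, z scores and p-values were not used. Overlapping genes counted together, 64 in number, held 0.227% of counts.

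Counts were tested with edgeR 4.0.16 in R 4.3.3 (quasi-likelihood test, TMM scaling), on genes whose RPKM averaged 0.5 or more in the libraries compared, with Benjamini-Hochberg adjustment over all of them. A gene was called at an adjusted p of at most 0.05 and 1.5-fold, the study's thresholds, and at the adjusted p alone for the difference between stages. RPKM here is CPM per kilobase of the length in the files. Shares and ratios had exact permutation tests (SciPy 1.17.1). Replicate libraries differed by more than sampling noise (lowest chi-square per degree of freedom 6.71). Fits were tested on simulated counts. Named genes were the 5 members, every pathway or hypoxia gene called, and the 3 genes most like each member, and values of other genes were added once seen. The members and lists were chosen with earlier results of these data known. List genes renamed since the files were made were matched by identifier, and *Pgk1* and *Alas2* were not in the tests. A further 2 list genes are not reported here and were left out of the list counts. Alternatives were no filter, median-ratio scaling, DESeq2 1.42.0, a joint fit of the 12 libraries, a block for the replicate number, a sex term (male at 100 or more reads on 4 Y-linked genes), no fold threshold and each library left out. Promoter sequences are from RefSeq (GRCm38.p6), where 4 of 5 members matched. No confidence intervals were computed, and the standard errors, taken from the quasi-likelihood fits, include the spread between libraries. With 3 libraries a group, precision was set by the spread between libraries, and at the lowest levels by the few reads.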

Additional observations from a re-analysis of the deposited data

How the results depend on the processing

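The higher and lower levels of *Adm* and *Ramp1* in mutants kept their direction under every alternative run at both stages. Both genes were chosen with these contrasts known, and their genotypes did not overlap at either stage. Leaving out 1 library could hardly turn the direction, so nothing is read from this. Counts over all genes moved most. At E11.5 the 14 genes called between genotypes became 73 with no filter, 248 with DESeq2, 224 with all 12 libraries in one fit, 39 with a sex term, and 0 to 15 without 1 library (0 without control replicate 1 or 3 or mutant replicate 1 or 2), while 1 pathway gene was called with the sex term. At E12.5 the 371 became 122 (and 1 pathway gene, from 4) in the joint fit, 628 with no fold threshold, and 186 to 383 without 1 library (lowest without control replicate 1), with 1 to 3 pathway genes. In controls between stages the 650 became 359 in the joint fit, 19 with the sex term and 1390 with no fold threshold, and 45 to 1407 without 1 library (lowest without E12.5 control replicate 1, highest without E11.5 control replicate 2). Pathway genes there, 1 as reported, numbered 1, 8 and 0 to 6 in the last 3 of these, and 1 member, *Ramp1*, was called with no fold threshold. In mutants between stages the 64 became 119 with no filter, 226 with DESeq2 (2 pathway genes and 1 member, *Adm*), 127 in the joint fit and 1 to 123 without 1 library (1 without E12.5 mutant replicate 2). For the difference between stages DESeq2 called 43 genes, and 0 to 10 were called without 1 library.

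The main fits did not pair libraries by replicate number. In no comparison did all 3 same-numbered pairs correlate above 0.1 in their deviations (lowest -0.115, highest 0.401). Between genotypes at E11.5 the pairs had 0.0038, 0.401 and 0.269, so pairing there was not excluded. With the replicate block, 96 genes were called between genotypes at E11.5 and 26 between stages in mutants. Adding the block made the *Adm2* call miss the threshold (adjusted p = 0.0514) and took *Ddit4* under 1.5-fold (log2 0.57).

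By raw counts the *Ramp1* share was 18.1% (control) and 8.52% (mutant) at E11.5 and 12.5% and 6.67% at E12.5, and by annotation lengths, an alternative added after the lengths were seen, 19.3%, 9.18%, 13.3% and 7.15%. Without 1 library, small values changed sign. The stage value of *Ramp2* in mutants ran from -0.139 to 0.0690, and the difference of the mutant effect between stages from -0.00799 to 0.215 for *Ramp1*, from -0.13 to 0.75 for *Ramp3* and from -0.12 to 0.19 for *Calcrl*. The cause of these shifts was not tested.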
